A study of Mus musculus with 6 samples.

Results

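The globin genes Hba-x, Hba-a1, Hba-a2, Hbb-y, Hbb-bh1, Hbb-bt and Hbb-bs, together with Alas2, were examined in RNA from the embryonic mouse telencephalon. These 8 genes were chosen by name as the blood genes of the tables and were 8 of the 55471 gene identifiers counted, 7 globins and 1 heme enzyme. RNA was taken from the rostral end of the telencephalic primordium of E11.5 mouse embryos, from 3 control samples and 3 Rx-Dicer samples. Control embryos were DicerF/F and Rx-Dicer embryos were RxCre-DicerF/F, so both genotypes carried the floxed allele Dicer1tm1Bdh and only the second carried Cre. The sample annotation names the control genotype WT, whereas the dissection protocol names it DicerF/F. The Rx3-Cre mice were kept on a CD1 background and the floxed mice on C57BL/6. Cre was driven by regulatory sequences of Rax (Rx), a gene of the developing retina and forebrain, and the study describes recombination as stronger in rostral and ventral telencephalon, the region sampled being rostral, than in the neocortex. Whether a library held a single embryo or a pool was not stated, so p-values measure the spread between these samples.

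Hemoglobin is built from α-type and β-type globin chains, each holding a heme group. In the mouse embryo, primitive red cells made in the yolk sac enter the circulation first and use the embryonic chains ζ (Hba-x), εy (Hbb-y) and βh1 (Hbb-bh1), and as these cells mature they pass from βh1 to εy and from ζ to adult α chains. The adult β genes Hbb-bt and Hbb-bs are used mainly by definitive red cells of the fetal liver and later bone marrow, and Alas2 is the erythroid enzyme for the first step of heme synthesis. Neural cells are not a usual source of these RNAs, so in a dissected brain they report on the blood that came with the tissue. In bulk RNA, fewer red cells and less RNA per red cell cannot be told apart.

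The α-type genes lie together on chromosome 11 and the β-type genes on chromosome 7 (mouse assembly GRCm38), and Alas2 lies on chromosome X. RefSeq promoter windows (GRCm38.p6) were matched for 7 of the 8 genes. The following windows give the 120 bases before the RefSeq start. They are those of the leading embryonic α-type and β-type genes, of the duplicated adult α genes and of the heme enzyme. Each of these genes had its highest values in control 2 and Rx-Dicer 3. Capitals mark the 4 motifs named in the next paragraph, on either strand. Some of these bases fall inside longer GENCODE transcripts.
Hba-x, chr11:32276480-32276599, plus strand: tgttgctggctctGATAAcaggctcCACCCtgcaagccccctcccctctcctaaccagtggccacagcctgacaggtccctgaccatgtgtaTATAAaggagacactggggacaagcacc
Hba-a1, chr11:32283552-32283671, plus strand: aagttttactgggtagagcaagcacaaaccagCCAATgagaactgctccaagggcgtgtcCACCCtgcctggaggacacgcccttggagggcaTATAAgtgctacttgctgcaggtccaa
Hba-a2, chr11:32296372-32296491, plus strand: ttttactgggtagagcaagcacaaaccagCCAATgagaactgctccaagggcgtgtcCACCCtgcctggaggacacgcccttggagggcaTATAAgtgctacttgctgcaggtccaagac
Hbb-y, chr7:103853208-103853327, minus strand: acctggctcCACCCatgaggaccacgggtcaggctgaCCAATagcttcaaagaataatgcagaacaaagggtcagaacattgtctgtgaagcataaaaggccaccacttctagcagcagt
Alas2, chrX:150547297-150547416, plus strand: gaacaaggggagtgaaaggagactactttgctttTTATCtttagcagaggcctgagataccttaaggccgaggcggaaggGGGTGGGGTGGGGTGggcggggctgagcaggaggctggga

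CACCC, the core of sites used by Krüppel-like factors such as the erythroid regulator Klf1, was in 7 of the 7 matched windows, against 31.7% of 32851 promoter windows of the same length. TATAA was in 5 of the 7, against 11.8% of windows, and CCAAT in 5 of the 7, against 21.3%. No TATAA was in the windows of Hbb-y and Alas2. GATAA, the core of sites for Gata1, was in 2 of the 7, those of Hba-x and Alas2, against 10.5% of windows. The Hba-a1 and Hba-a2 windows were shifted by 3 bases against each other and then had 0 differences over 117 bases. These are matches of letters, which do not show binding.

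Between 34471501 and 48373468 counts per library were assigned to genes. The floor used here, 3 counts, corresponded to 0.0620 to 0.0870 CPM (counts scaled to the total of the library), far under every globin value. Dicer1 itself had 6355, 7070 and 6270 normalised counts in control samples 1 to 3, and 4777, 7002 and 4644 in Rx-Dicer samples 1 to 3 (log2 fold change −0.26 ± 0.17 SE, adjusted p = 0.567, DESeq2). Counts over the whole gene also take reads outside the floxed part, so they do not check the deletion. Emx2, a transcription factor gene of the dorsal telencephalon, had 4997 to 9840 normalised counts in the 6 libraries. Over all genes, 502 of 17128 tested were called between genotypes (DESeq2 Wald test, adjusted p under 0.05 and a log2 fold change beyond 0.32 in size), which is 2.93% of them, with 300 higher and 202 lower in Rx-Dicer.

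Globin RNA was abundant and its share differed more between libraries of a genotype than between the genotypes. The 7 globins took 1.11% of all counts in control 1, 2.28% in control 2 and 1.01% in control 3. They took 1.10%, 0.854% and 2.26% in Rx-Dicer 1, 2 and 3. Control 2 and Rx-Dicer 3 therefore stood apart, the lower of them 2.04-fold above the highest of the other 4 libraries, and there was a library of each genotype on both sides. The mean was 1.46% ± 0.704 (SD, n = 3) in controls and 1.40% ± 0.749 (SD, n = 3) in Rx-Dicer. The 95% Wilson intervals of these shares were narrow, for example 2.27% to 2.28% in control 2 and 2.25% to 2.26% in Rx-Dicer 3, and they cover counting error only. On the log2 CPM scale the genotypes differed by −0.09 ± 0.56 (SE of the difference), with overlapping groups (two-sided exact permutation test, p = 0.7, n = 3 each). In this design the smallest possible p is 0.1.

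**Figure D1:**
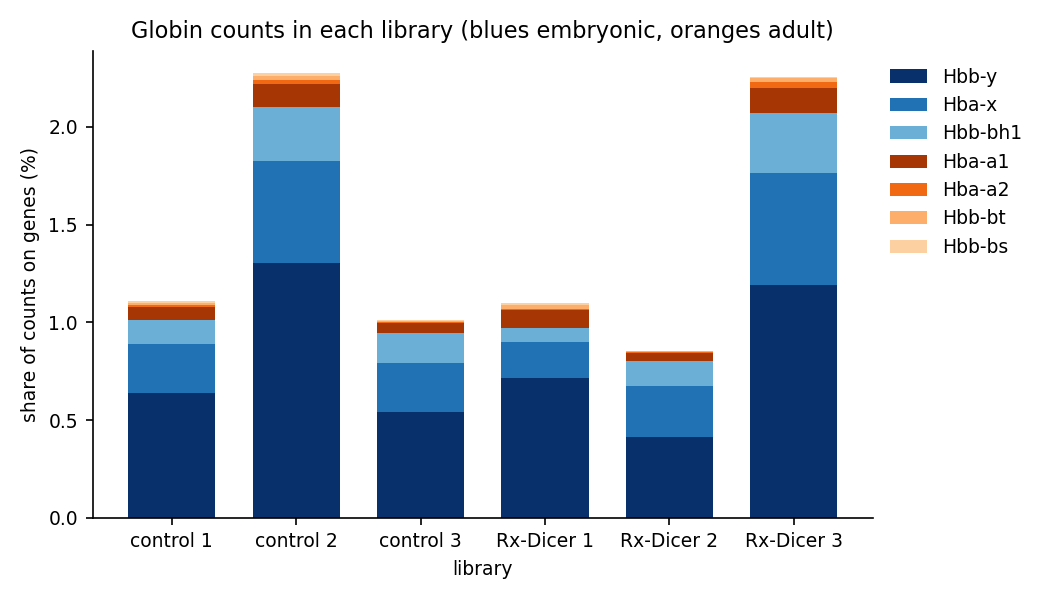
Share of all counts on genes (y axis, %) taken by each of the 7 globin genes in each library (x axis), stacked, with embryonic genes in blue and adult genes in orange. Control 2 and Rx-Dicer 3 reach 2.28% and 2.26%, the other 4 libraries 0.854% to 1.11%, and the blue segments make up most of every bar.

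Embryonic chains dominated in every library. Hba-x, Hbb-y and Hbb-bh1 together made up 91.4%, 92.4% and 93.4% of the globin counts in controls 1 to 3, and 88.6%, 93.9% and 91.8% in Rx-Dicer 1 to 3. Per transcript length, Hbb-y (εy) had the highest level, with a mean over the 6 libraries of 24627 TPM (counts per transcript length, scaled to a common total). It was followed by Hba-x (ζ) at 8268 TPM, Hbb-bh1 (βh1) at 5631 TPM and Hba-a1 (adult α) at 2270 TPM. Hba-a2 (adult α), Hbb-bt and Hbb-bs (adult β) and Alas2 had mean levels of 509, 347, 235 and 102 TPM. Hbb-y exceeded Hba-x in 6 of 6 libraries, by 2.03-fold to 4.91-fold, and Hba-x exceeded Hbb-bh1 in 6 of 6, by 1.22-fold to 1.92-fold. Hba-a1 exceeded Hba-a2 in 6 of 6, by 3.03-fold to 7.52-fold. Reads that fitted both copies of a near-identical pair were not counted, which lowers Hba-a1, Hba-a2, Hbb-bt and Hbb-bs by amounts that were not measured. The places of these adult genes in the order are therefore uncertain. The remaining neighbours in this order changed places in at least 1 library. Hbb-bh1 was above Hba-a1 in 5 of 6 libraries, the exception being Rx-Dicer 1, and Hba-a2 was above Hbb-bt in 4 of 6. Hbb-bt was above Hbb-bs, and Hbb-bs above Alas2, each in 5 of 6.

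The embryonic α-type gene Hba-x had 106362, 226474 and 103619 normalised counts in controls 1 to 3, and 76385, 105245 and 250241 in Rx-Dicer 1 to 3. The highest value of each genotype was that of its blood-rich library, and the groups overlapped throughout. Its log2 fold change, Rx-Dicer over control, was −0.02 with a 95% interval from −1.19 to 1.16 (DESeq2, adjusted p = 0.997).

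The adult α gene Hba-a1 had 28710, 50102 and 20870 normalised counts in controls 1 to 3, and 36954, 15811 and 55593 in Rx-Dicer 1 to 3. Unlike Hba-x, it was higher in Rx-Dicer 1 than in controls 1 and 3. Its log2 fold change was 0.12, with an interval from −0.94 to 1.18 (adjusted p = 0.978, DESeq2). The second adult α copy, Hba-a2, had 3906, 10009 and 3166 normalised counts in controls against 3895, 2026 and 14544 in Rx-Dicer 1 to 3, a 7.18-fold range over the 6 libraries. Its log2 fold change was 0.26, with an interval from −1.56 to 2.08 (adjusted p = 0.970, DESeq2). The division of reads between the adult α copies was not stable between sequencing runs, as described below, so the values of Hba-a2 are uncertain.

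Of the embryonic β-type genes, Hbb-y had 268306, 565192 and 227277 normalised counts in controls 1 to 3 and 296429, 169192 and 517891 in Rx-Dicer 1 to 3. In Hbb-bh1 the controls had 51606, 119843 and 64941 and the Rx-Dicer libraries 30393, 52524 and 133956. The lowest Hbb-y value was that of Rx-Dicer 2, whereas the lowest Hbb-bh1 value was that of Rx-Dicer 1, so the pair did not keep a fixed ratio. Their log2 fold changes were −0.11 (interval −1.21 to 0.99) for Hbb-y and −0.12 (interval −1.39 to 1.15) for Hbb-bh1, both with adjusted p = 0.982 (DESeq2).

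The adult β gene Hbb-bt had 4687, 7830 and 2906 normalised counts in controls 1 to 3 and 6941, 2601 and 6801 in Rx-Dicer 1 to 3. Hbb-bs had 2850, 7187 and 1110 in controls against 4186, 686 and 3361 in Rx-Dicer, a 10.5-fold range that was the widest of the 8 genes. Both were lowest in Rx-Dicer 2 and next lowest in control 3. The log2 fold change was 0.08 (interval −1.06 to 1.22) for Hbb-bt and −0.44 (interval −2.34 to 1.46) for Hbb-bs, with adjusted p = 0.987 and 0.946 (DESeq2).

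Alas2 had 3159, 7616 and 2843 normalised counts in controls 1 to 3 and 3419, 2773 and 7386 in Rx-Dicer 1 to 3, again highest in control 2 and Rx-Dicer 3. Its log2 fold change was −0.00 (interval −1.18 to 1.17, adjusted p = 1.000, DESeq2). None of the 8 genes was called, against 2.93% of all genes tested. By DESeq2 and by edgeR alike, 0 of the 8 had an unadjusted p under 0.05, against 13.1% and 12.9% of all genes tested. In addition, edgeR's quasi-likelihood test called 0 of them, against 0.0446% of 17954 genes. The 3 values of the Rx-Dicer group lay beyond the 3 control values for 0 of the 8, against 19.3% of genes tested. The median log2 fold change of the 8 was −0.01, beside −0.00 over all genes tested. The intervals of all 8 included changes of up to 1.92-fold in either direction, so differences of that size were not excluded for any of them. For each of the 8, a larger change in at least 1 direction was not excluded either. The widest limits were 0.340-fold to 4.22-fold for Hba-a2 and 0.198-fold to 2.76-fold for Hbb-bs. The sign depended on single libraries. All 8 log2 fold changes were above 0 without control 2 (0.31 to 0.95) or without Rx-Dicer 2 (0.03 to 0.70), and all 8 were below 0 without Rx-Dicer 3 (−0.94 to −0.11) or without control 3 (−0.87 to −0.03).

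**Figure D2:**
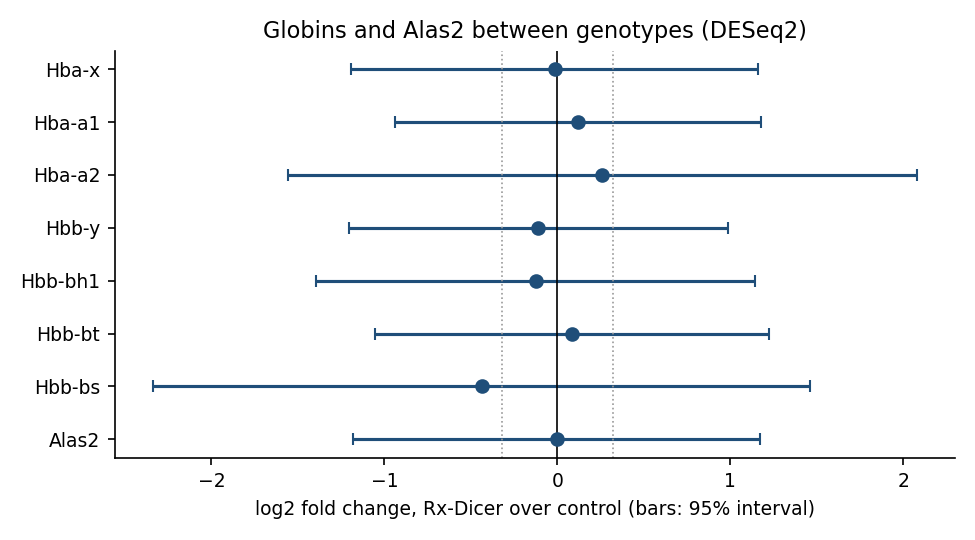
DESeq2 log2 fold change of each gene, Rx-Dicer over control (x axis), with its 95% interval (bars). The solid line marks no change and the dotted lines a log2 fold change of 0.32 in size. All 8 intervals span 0, and those of Hba-a2 and Hbb-bs are the widest.

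Proportions within the globins allow libraries with different amounts of globin RNA to be compared. Hba-x made up 76.5%, 79.0% and 81.2% of the α-type counts in controls 1 to 3, and 65.2%, 85.5% and 78.1% in Rx-Dicer 1 to 3. The lowest and the highest of the 6 values were thus both Rx-Dicer libraries. The difference between genotype means was −2.65 ± 6.10 percentage points (SE; exact permutation test, p = 0.8).

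Hbb-bh1 made up 15.8%, 17.1% and 21.9% of the β-type counts in controls 1 to 3, and 8.99%, 23.3% and 20.2% in Rx-Dicer 1 to 3. Again Rx-Dicer 1 was lowest and Rx-Dicer 2 highest, and the genotypes differed by −0.74 ± 4.74 percentage points (SE; exact permutation test, p = 0.9). Hbb-y took most of the remainder, with 81.9%, 80.7% and 76.7% in controls against 87.7%, 75.2% and 78.2% in Rx-Dicer (difference 0.58 ± 4.09 percentage points, exact permutation p = 0.9). The adult pair Hbb-bt and Hbb-bs made up 2.30%, 2.15% and 1.36% of β-type counts in controls against 3.29%, 1.46% and 1.53% in Rx-Dicer. The adult share was highest in Rx-Dicer 1 and lowest in control 3, with a difference of 0.16 ± 0.67 percentage points between genotypes (exact permutation test, p = 0.8). Counting error was small beside these gaps, since the widest 95% Wilson interval of any share in any library spanned 0.505 percentage points.

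The Hba-x share and the Hbb-bh1 share come from separate loci and separate denominators, and they ordered the libraries in nearly the same way. Over the 6 libraries Pearson's r was 0.96 (exact permutation p = 0.00417, adjusted p = 0.0167) and Spearman's rho 0.94 (exact permutation p = 0.0167, adjusted p = 0.0333), adjusted over the coefficients of the 2 relations computed. Without Rx-Dicer 1 and Rx-Dicer 2, the libraries farthest from the median, r was 0.79 over the 4 that remained. The genotypes were mixed along this order. Within 1 genotype there were too few libraries to test the relation. Neither of the 2 relations was among the planned comparisons, and their p-values do not allow for that choice.

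α-type counts were 0.424, 0.409 and 0.431 of the β-type counts in controls 1 to 3, and 0.347, 0.547 and 0.484 in Rx-Dicer 1 to 3. The log2 ratio differed by 0.10 ± 0.20 between genotypes (SE; exact permutation test, p = 0.7). The controls were close together (SD 0.04 on the log2 scale, n = 3), and the Rx-Dicer libraries were spread on both sides of them (SD 0.34, n = 3). Per transcript length the ratio was lower, 0.291 to 0.441 over the 6 libraries. Alas2 followed the globins closely, with 148, 130 and 149 globin counts per Alas2 count in controls 1 to 3 and 133, 126 and 133 in Rx-Dicer. The log2 ratio of Alas2 to globins was 0.12 ± 0.07 higher in Rx-Dicer (SE; exact permutation test, p = 0.3), with control 2 lying among the Rx-Dicer values. Adjusted over the 7 composition values, p was 0.9 for each.

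**Figure D3:**
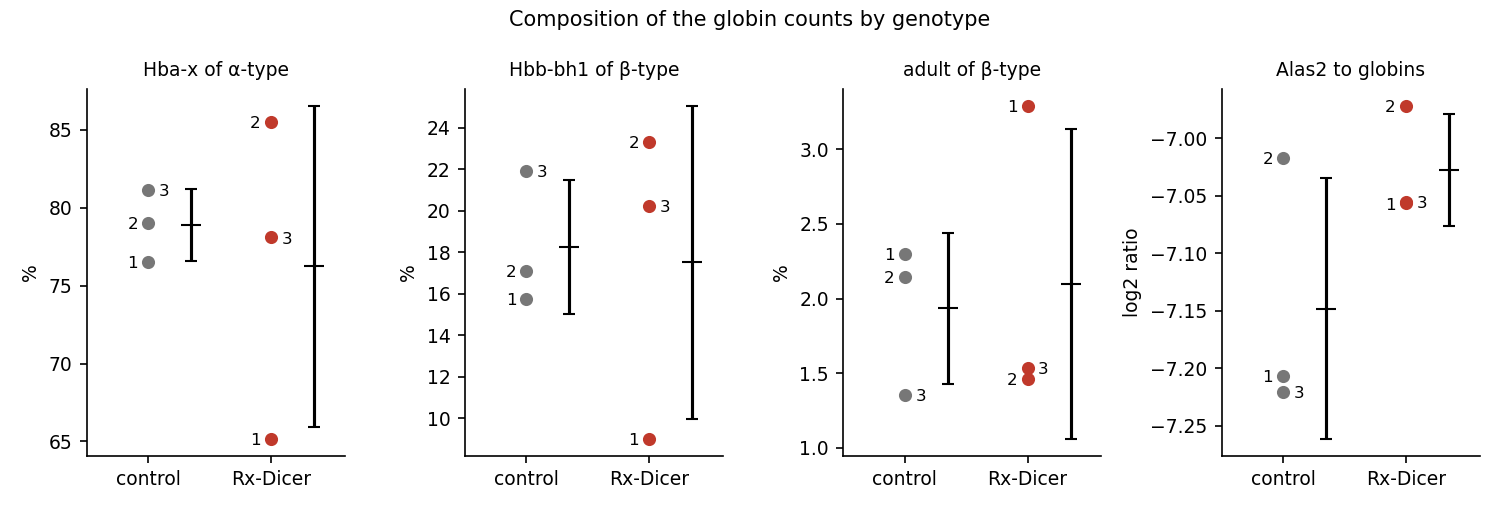
Share of Hba-x among α-type counts, of Hbb-bh1 and of adult genes among β-type counts (%), and log2 ratio of Alas2 to globin counts, for each library (points, numbered by replicate) with the group mean and SD (bars, n = 3). Axes do not start at 0. Rx-Dicer 1 and Rx-Dicer 2 take opposite ends of the Hba-x and Hbb-bh1 shares, and the genotypes overlap in every panel.

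Hba-a1 and Hba-a2 could not be told apart reliably. Their coding sequences, 429 bases each in GENCODE M21, differed at 1 position, C381T (Hba-a1 base, position counted from the A of the start codon, Hba-a2 base). The surrounding coding sequence is shown with that position in capitals.
Hba-a1, chr11:32284318-32284368, plus strand: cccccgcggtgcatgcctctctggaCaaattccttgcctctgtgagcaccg
Hba-a2, chr11:32297135-32297185, plus strand: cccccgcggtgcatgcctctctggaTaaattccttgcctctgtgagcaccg
Of the 100-base stretches of the Hba-a2 transcript, the length of a read, 74.5% also occurred in Hba-a1, and 56.5% of those of Hba-a1 occurred in Hba-a2. By comparison, 0 of the stretches of Hba-x or Hbb-bh1 occurred in another of the 7 globin transcripts. Hbb-bt and Hbb-bs also differed at 1 of 444 coding positions (T417C, Hbb-bt base first), and shared 54.8% and 62.6% of their stretches. Hba-x matched Hba-a1 at 62.0% of coding positions, and Hbb-bh1 matched Hbb-y at 76.4%.

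The sequencing runs of a library split this pair differently. In Rx-Dicer 3, Hba-a1 had 24153 counts in run 1 and 34327 in run 2, whereas Hba-a2 had 11813 in run 1 and 3486 in run 2. Their sum was 35966 in run 1 and 37813 in run 2. Hba-a2 thus made up 32.8% of the pair in run 1 and 9.22% in run 2. In control 3 it made up 17.5% in run 1 and 8.62% in run 2, and in Rx-Dicer 1 it made up 10.9% and 7.97%. In control 1, control 2 and Rx-Dicer 2 the runs were within 1 percentage point of each other. Scaled to run depth, the largest ratio between runs was 3.41 for Hba-a2, 1.41 for Hba-a1 and 1.12 for their sum. It was 1.07 or less for Hba-x, Hbb-y, Hbb-bh1, Hbb-bt and Alas2, and 1.09 for Hbb-bs. Of 6505 genes with at least 500 counts in every run, 6 had a ratio over 1.5 in some library, and Hba-a2 was second among them. The fold change of Hba-a2 took either sign, 0.68 from the first run and −0.41 from the second on the log2 scale. With both copies summed into a single row, an alternative chosen after seeing the data, the log2 fold change was 0.14 (adjusted p = 0.975, DESeq2). The shares of Hba-x given above use the sum of the copies and do not depend on the split. Reads that fitted both copies of an adult pair were not counted, however, whereas Hba-x, Hbb-y and Hbb-bh1 shared no stretch with another globin. The embryonic shares given above are therefore likely too high, and the α-type to β-type ratio is also affected, by amounts that were not measured.

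**Figure D4:**
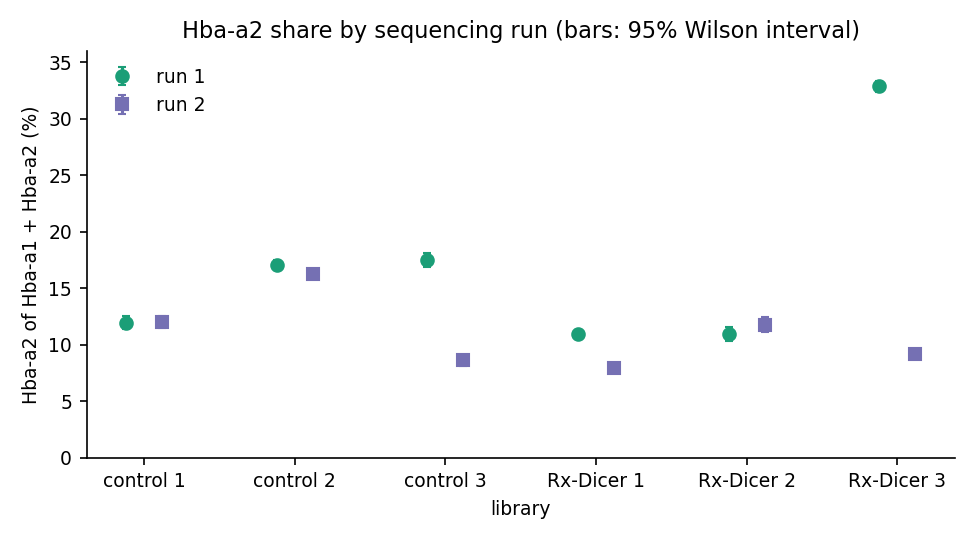
Hba-a2 as a percentage of Hba-a1 plus Hba-a2 counts (y axis) in the first (circles) and second (squares) sequencing run of each library (x axis), with 95% Wilson intervals. The runs of Rx-Dicer 3 lie at 32.8% and 9.22%, those of control 3 at 17.5% and 8.62%, and the other libraries between 7.97% and 17.1%.

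The Hbb-bt to Hbb-bs ratio varied for another pair of near-identical copies, but there the runs kept together. It was 1.64, 1.09 and 2.62 in controls 1 to 3, and 1.66, 3.79 and 2.02 in Rx-Dicer 1 to 3. Mouse strains carry different haplotypes of the adult β genes, the annotation used here is that of C57BL/6, and the crosses included CD1 stock. Haplotypes were not examined, and their part in this ratio was not tested.

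Other erythroid genes were taken as 4 lists of 52 genes found in the tables, and 0 of the 52 were called between genotypes by DESeq2 or edgeR, against the 2.93% and 0.0446% of all genes given above. An unadjusted p under 0.05 was found for 3 of the 52 by DESeq2 and 2 of the 52 by edgeR, against 13.1% and 12.9% of all genes, and the median log2 fold change was 0.02. The groups did not overlap for 2 of the 52, against 19.3% of genes tested. Instead, 42 of the 52 (80.8%) had their highest values in control 2 and Rx-Dicer 3, as did 6 of the 8 globin and Alas2 genes, against 6.44% of all genes tested. The exceptions among the 8 were Hbb-bt and Hbb-bs, for which Rx-Dicer 1 ranked above Rx-Dicer 3.

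Among the genes of heme synthesis and iron supply, 0 of 16 were called and 12 had control 2 and Rx-Dicer 3 as their highest libraries. The transferrin receptor Tfrc had 6379 to 10341 normalised counts, the mitochondrial iron importer Slc25a37 had 4160 to 12763, and Glrx5, which acts in iron-sulfur cluster assembly, had 2892 to 4527. The summed list spanned 1.81-fold from the lowest to the highest library. Slc25a38, a mitochondrial glycine carrier needed for heme synthesis, had 1166, 1590 and 1432 normalised counts in controls against 1040, 1098 and 1218 in Rx-Dicer, with a log2 fold change of −0.32 ± 0.15 SE (adjusted p = 0.328, DESeq2).

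Of the 8 erythroid transcription factor and Epo receptor genes, 0 were called, and 7 had control 2 and Rx-Dicer 3 as their highest libraries. Tal1, a regulator of blood cell formation, had 941, 2094 and 971 normalised counts in controls against 930, 1134 and 2382 in Rx-Dicer. Zfpm1, a cofactor of Gata1, ranged from 735 to 1769. Lmo2, which is also used by endothelial cells, was the exception, with 1565, 950 and 616 in controls against 1310, 978 and 1089 in Rx-Dicer.

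Of the 20 genes of the red cell membrane and blood groups, 0 were called and 17 had control 2 and Rx-Dicer 3 as their highest libraries. Slc4a1, the anion exchanger of the red cell membrane, had 6397, 17586 and 7753 normalised counts in controls against 7233, 7336 and 19756 in Rx-Dicer. Epb41 and Add2, membrane skeleton genes that are also used outside blood, ranged only from 10829 to 13908 and from 4464 to 6094. Dmtn, which encodes the actin-bundling protein dematin and is also used in brain, came closest to a call, with 1016, 1514 and 951 in controls against 2032, 1315 and 2265 in Rx-Dicer (log2 fold change 0.69 ± 0.22 SE, adjusted p = 0.0632, DESeq2). It passed the threshold under 3 of the planned settings at an adjusted p under 0.05, and its groups overlapped.

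Of the 8 late erythroid, oxygen and redox genes, 0 were called. The peroxiredoxin Prdx2 had 34101, 37280 and 32206 normalised counts in controls against 29020, 24602 and 32146 in Rx-Dicer (log2 fold change −0.27 ± 0.13 SE, adjusted p = 0.344, DESeq2). Its groups narrowly did not overlap. Catalase, Cat, ranged from 4462 to 5602, whereas the carbonic anhydrase Car2 had 3217, 7266 and 3825 in controls against 3106, 3766 and 8385 in Rx-Dicer. Of the 4 genes known for repressing or regulating embryonic globins, 0 were called. Bcl11a had 6309, 5471 and 4255 normalised counts in controls against 5040, 3662 and 4722 in Rx-Dicer, and Sox6 ranged from 4556 to 5759. Zbtb7a had 1166, 1184 and 1108 in controls against 1437, 1351 and 1597 in Rx-Dicer (log2 fold change 0.34 ± 0.13 SE, adjusted p = 0.138, DESeq2), and its groups did not overlap, as for 19.3% of all genes tested. These regulators are also expressed in the brain, so their levels here are not those of blood cells alone.

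Further globin genes were scarce, and 0 of the 3 that could be tested were called. Hbq1b, a θ globin of the α cluster, had 118, 202 and 98.6 normalised counts in controls against 115, 95.8 and 220 in Rx-Dicer. Hbb-bh0, a minor embryonic β-type gene, had 47.6, 203 and 81.7 in controls against 37.7, 22.4 and 197 in Rx-Dicer. Cygb, the globin of fibroblast-like and other non-blood cells, had 78.4 to 232 and was highest in Rx-Dicer 1. The nerve cell globin Ngb had 6.11 to 16.9 normalised counts, the muscle globin Mb had 0 to 4.70, and Hbb-bh2 had 3.06 to 11.4.

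The sum over 19 blood-restricted erythroid genes was 14677, 38662 and 17682 normalised counts in controls 1 to 3 and 15028, 17726 and 44736 in Rx-Dicer. None of the 19 was called, and 18 of them had control 2 and Rx-Dicer 3 as their highest libraries. Relative to the globins, however, these genes were not constant. Slc4a1 had 137, 178 and 183 counts per 10000 globin counts in controls 1 to 3, and 159, 211 and 201 in Rx-Dicer 1 to 3. Hemgn, a nuclear protein of blood progenitors and erythroblasts, had 17.9, 24.1 and 37.9 in controls against 10.7, 48.7 and 41.3 in Rx-Dicer. Gata1 had 3.64, 6.07 and 8.18 in controls against 3.88, 8.22 and 6.32 in Rx-Dicer. Control 1 and Rx-Dicer 1, the libraries with the lowest Hbb-bh1 shares, were lowest for each of these genes. Klf1 did not keep this order, with 8.72, 9.36 and 8.58 in controls against 5.46, 11.6 and 10.2 in Rx-Dicer, so that control 3 was below control 1. Gata1 and Klf1 were picked for this after their values had been seen.

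Over the 19 genes, the median log2 ratio to the summed globins was −10.16, −10.06 and −9.98 in controls 1 to 3 and −10.13, −9.75 and −9.94 in Rx-Dicer 1 to 3. Against the Hbb-bh1 share, Pearson's r over the 6 libraries was 0.81 (exact permutation p = 0.0458, adjusted p = 0.0458) and Spearman's rho 0.89 (exact permutation p = 0.0333, adjusted p = 0.0444). Without Rx-Dicer 1 and Rx-Dicer 2, r was 0.90 over 4 libraries. Hbb-bh1 counts are also part of the denominator of this ratio, and the relation was not among the planned comparisons. For some genes of the list only normalised counts are given, not ratios to the globins. The globin share itself was lowest in Rx-Dicer 2 (0.854%) and control 3 (1.01%), and it spanned 2.66-fold over the 6 libraries. Tspo2 and Trim58, given next, spanned 20.3-fold and 6.76-fold in normalised counts. Their relation to the Hbb-bh1 share was not tested. Tspo2 had 42.8, 62.1 and 11.3 normalised counts in controls against 52.3, 3.06 and 30.4 in Rx-Dicer, so that it was lowest in Rx-Dicer 2 and control 3, as were Hbb-bt and Hbb-bs. Its value in Rx-Dicer 2 was at about the floor of 3 counts. Trim58, a ubiquitin ligase of late erythroblasts, had 44.0, 145 and 36.6 in controls against 60.9, 21.4 and 78.9 in Rx-Dicer, with the same pair of libraries lowest. Both were named after their values had been seen.

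**Figure D5:**
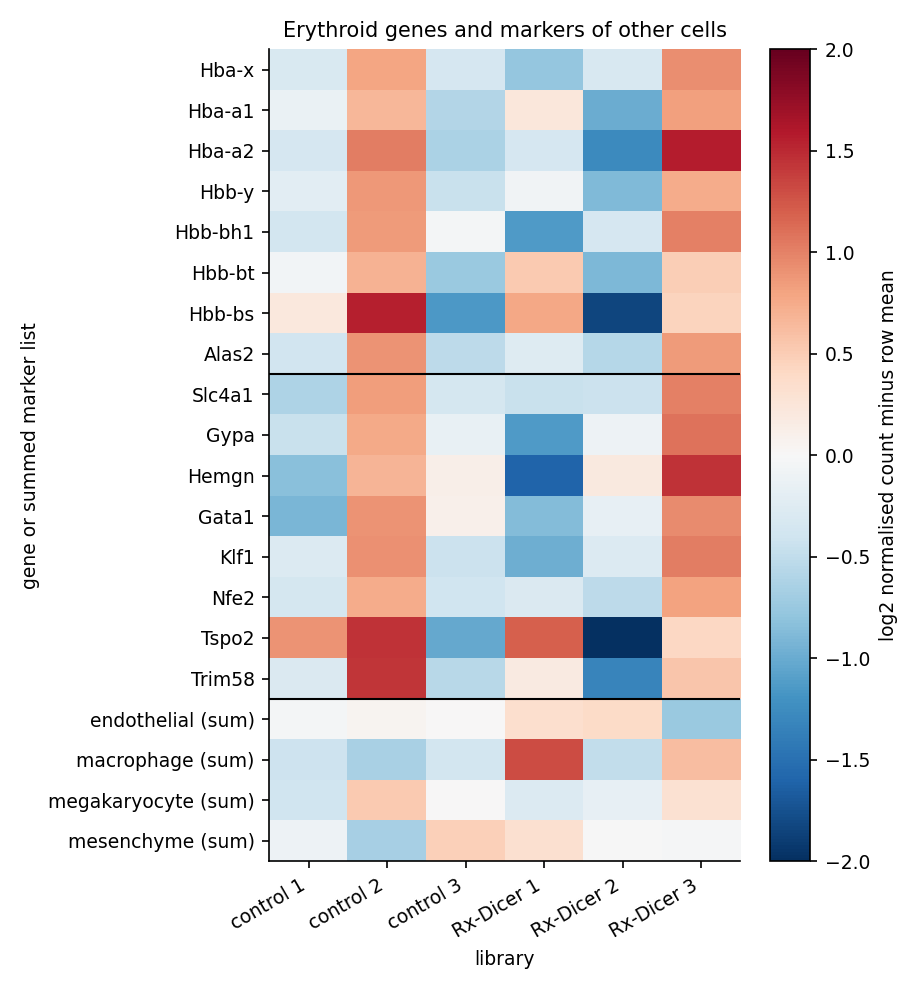
Log2 normalised counts minus the mean over the 6 libraries (colour, from −2 in blue to 2 in red, values beyond shown at the limit) for the 8 genes, 8 further erythroid genes and the summed markers of other cells (rows) in each library (columns). Erythroid rows are red in control 2 and Rx-Dicer 3, whereas the endothelial sum is lowest in Rx-Dicer 3.

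Of the 10 genes outside the 8 whose log2 normalised counts were most like those of the summed globins, among 14157 with a mean of at least 50, 9 are named here. They were Hdgf, Nfe2, Ube2l6, Hbq1b, Trim10, Plek2, 1300017J02Rik, Tuba4a and Cenpp, with r from 0.99 down to 0.98 over the 6 libraries. Of the 14157 genes, 1.12% had r over 0.9, and 9 of 18 blood-restricted genes did. Control 2 and Rx-Dicer 3 lie apart from the rest in summed globins, and the correlations are given as a description. The amplitude differed widely within the 10. Plek2, a pleckstrin family gene, had 142, 319 and 141 normalised counts in controls against 156, 106 and 397 in Rx-Dicer (SD over the 6 libraries 0.75 on the log2 scale). Nfe2, an erythroid and megakaryocyte transcription factor, had an SD of 0.61, whereas the growth factor gene Hdgf, at a mean of 19915 normalised counts, and Cenpp each had an SD of 0.15. None of the 10 was called between genotypes.

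Markers of other cells did not all follow the globins. None of the 10 endothelial markers was called, and their summed normalised counts were 8550, 9102 and 8848 in controls 1 to 3 and 11101, 11502 and 5250 in Rx-Dicer 1 to 3. Rx-Dicer 3 thus had the fewest vessel counts and nearly the highest globin share. Cdh5, Kdr and Tie1, endothelial surface genes, had 896, 937 and 477 normalised counts in that library, each the lowest of the 6. Of the 10 macrophage and microglia markers, 2 were called higher in Rx-Dicer, against 2.93% of all genes tested called in either direction. They were Csf1r (log2 fold change 0.98 ± 0.29 SE, adjusted p = 0.0330, DESeq2) and Cx3cr1 (1.18 ± 0.31 SE, adjusted p = 0.0101, DESeq2). All 10 had log2 fold changes above 0, from 0.81 to 1.35. An unadjusted p under 0.05 was found for 9 of the 10 by DESeq2 and 8 by edgeR, against 13.1% and 12.9% of all genes. The groups overlapped for each of the 10. The macrophage sum was 1661, 1414 and 1714 in controls against 5486, 1565 and 3396 in Rx-Dicer, so it was high in Rx-Dicer 1 and 3, only the second of which was rich in globins, and Rx-Dicer 2 lay within the control range. The 6 megakaryocyte and platelet markers, of which 0 were called, summed to 1515, 2864 and 1992 in controls against 1642, 1771 and 2446 in Rx-Dicer, and 5 of the 6 had control 2 and Rx-Dicer 3 as their highest libraries. Pf4, Itga2b and Itgb3 led this list with means of 505, 557 and 528 normalised counts, and Gp1bb was at 0 in 4 libraries. Of 8 mesenchyme markers 0 were called, and their sum, led by Col3a1, Col1a2 and Col1a1, was lowest in control 2 at 35880 and highest in control 3 at 78654. Among 10 telencephalic markers, Fabp7 (log2 fold change −0.76 ± 0.22 SE, adjusted p = 0.0307, DESeq2) and Pax6 (−0.43 ± 0.12 SE, adjusted p = 0.0127, DESeq2) were called lower in Rx-Dicer. By edgeR's quasi-likelihood test none of these 4 genes was called, with adjusted p = 0.271 for Csf1r, 0.236 for Cx3cr1, 0.269 for Fabp7 and 0.144 for Pax6. Neither the vessel nor the macrophage markers were tested for a part in the globin values.

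The composition of the globins was also set against the whole table. With the Hbb-bh1 share as a covariate beside genotype, a setting chosen after seeing the data, 728 genes were called by DESeq2, 366 of them higher in Rx-Dicer, and 471 of the 502 were among them. No other covariate was fitted for comparison, so the number cannot show anything particular to globin composition. Without control 2 and Rx-Dicer 3 together, which left 2 libraries per genotype, 122 genes were called by DESeq2 and again 0 of the 8.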

How the data were processed

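Directional libraries, made from 1 µg of total RNA and read as pairs of 100 bases, were deposited by the authors as raw read counts per gene, in 2 files for each of the 6 samples. Per the submitters' processing notes and the study's methods, reads were trimmed with Trim Galore 0.6.5, aligned to GRCm38.p6 with HISAT2 and counted by strand with HTSeq 0.12.4, after quality checks with FastQC. Reads that aligned to several places were not counted, which lowers genes with near-identical copies. The 2 files of a sample differed by a chi-square per degree of freedom of 1.13 to 1.52, whereas first runs of different samples of a genotype differed by 22.5 to 32.6, and were summed as repeat runs.

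Normalised counts are counts divided by DESeq2 median-of-ratios size factors. CPM scales counts on genes to a common library total, and TPM uses the longest protein-coding GENCODE M21 transcript of each gene. Genotypes were compared over the whole table with the DESeq2 1.42.0 Wald test (R 4.3.3), with genotype alone in the model. A gene was called at a Benjamini-Hochberg adjusted p under 0.05 with a fold change over 1.25. Intervals of fold changes are 1.96 SE. The 7 composition values were compared with two-sided exact permutation tests over samples in Python 3.11.15. edgeR 4.0.16 was an alternative, with the settings named in the closing section. The DESeq2 and edgeR steps were tested on simulated data.

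The 8 genes and the gene lists were chosen with earlier results of these data known. Genes are named if they are among the 8, are called in a list or, where none is called, are among the 3 of a list with the highest mean, or are among the 10 most like the summed globins. Other genes, among them Dmtn, Slc25a38, Gata1, Klf1, Emx2, Tspo2, Trim58, Ngb, Mb, Hbb-bh2 and Gp1bb, were named after their values had been seen. Values of 3 genes that fall under these rules or checks are not reported here. Protein sequences were not used here.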

Additional observations from a re-analysis of the deposited data

How the results depend on the processing

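The 8 genes were never called, under 113 combinations of gene and alternative, of which 30 gave a fold change of the other sign. The lowest adjusted p of any of them was 0.521 (DESeq2), for Hbb-bh1 without Rx-Dicer 3. Leaving out each library in turn gave log2 fold changes from −0.68 to 0.46 for Hba-x, −0.33 to 0.54 for Hba-a1, −0.94 to 0.95 for Hba-a2, −0.60 to 0.40 for Hbb-y, −0.93 to 0.31 for Hbb-bh1, −0.20 to 0.52 for Hbb-bt, −0.88 to 0.47 for Hbb-bs and −0.55 to 0.59 for Alas2. The fold change of Hba-a2 was −0.41 from the second run and −0.25 without control 2 and Rx-Dicer 3 together, a setting chosen after seeing the data, under which Hbb-bs was at 0.30. Alas2 crossed 0 under the edgeR test (0.0083), total counts as size factors (0.0069), the filter of 10 counts in 3 samples (0.0016), the second run alone (0.0056) and the removal of both blood-rich libraries (0.048). The cause was not tested.

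The count of all genes called was 502. It was 8 by edgeR, 285 to 639 with a library left out, lowest without control 2 (285) and without Rx-Dicer 3 (305), and 122 without both. Of the 52 erythroid list genes, 1 was called with total counts as size factors and 1 at an adjusted p under 0.1, both times Dmtn, and 0 to 1 with a library left out, which was Dmtn without control 2 or without Rx-Dicer 2 and Slc25a38 without control 1. The composition values moved by less than the spread between libraries under all alternatives run, but the sign of several rested on single libraries. Without Rx-Dicer 1 the differences, in percentage points, were 2.90 for the Hba-x share, 3.52 for the Hbb-bh1 share, −3.09 for the Hbb-y share and −0.44 for the adult share, each of the other sign. Without control 3 they were 1.08, −0.96 and −0.13 for the last 3. The summed globin difference on the log2 scale was 0.28 without control 2, 0.20 without Rx-Dicer 2 and 0.02 without Rx-Dicer 1, and the α-type to β-type difference was −0.04 without Rx-Dicer 2. The Alas2 to globin difference stayed above 0, from 0.08 to 0.19. Dividing by length used 1 transcript per gene.

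The labels number the samples 1 to 3 in both genotypes, but the deviations of same-numbered samples correlated at 0.29, −0.01 and −0.26, so the numbers were not taken as pairs. Across numbers, the highest values were 0.31 for control 3 with Rx-Dicer 2 and 0.25 for control 2 with Rx-Dicer 3. Together with control 1 and Rx-Dicer 1, these matches cover every library. The paper compared mutants with control littermates, but the labels give no litters. Pairing along these matches was not tested. With a block on the replicate numbers, which are not these matches, 314 genes were called, 244 of them shared with the unblocked fit, and 0 of the 8. The blocked log2 fold change was −0.030 for Hba-a2 and 0.020 for Alas2, and the blocked exact permutation p was 0.25, the smallest that 3 blocks can give, for the Alas2 to globin ratio and 0.75 for each other composition value. With 3 libraries per genotype and a spread of over 2-fold in globin share, the number of libraries and not the read depth limits these comparisons.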
